A study of Mus musculus with 2 samples.

Results

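The genes described here are 35 genes of the hypoxia response and of glycolysis, chosen by symbol: 20 on the glycolytic side, from glucose uptake to lactate export, and 15 other targets of the hypoxia-inducible factors (HIF). Of these, 33 had a row among the 19065 gene symbols of the files, 18 of the glycolytic side and all 15 other HIF targets. Gapdh and Eno1 were not analysed here. The cells were taken from tumours under the skin of mice, grown from the mouse lung cancer line Lewis lung carcinoma (LLC). The anti-PD-1 library is from tumours treated with an antibody that blocks PD-1, a brake on T cells, and was collected 7 days after treatment. The control library is from tumours treated with an IgG2a isotype control antibody, and its label gives no day of collection. The series text calls the control cells untreated, and the groups follow the sample labels. Mouse strain, age and the number of animals behind each library are not given in the sources used here. Each group is 1 library, so no test was possible, and differences between the libraries cannot be told apart from differences between animals, collection or preparation.

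When oxygen is low, prolyl hydroxylases no longer mark HIF-alpha proteins for destruction by the VHL ligase, and HIF then binds short DNA elements with the core ACGTG or GCGTG near its target genes. Its targets raise glucose uptake and glycolysis, limit the entry of pyruvate into mitochondria, remove acid and lactate, and include the hydroxylases themselves as a negative feedback. Glycolytic genes also respond to growth signals and to MYC, so in tumours they are not read as hypoxia alone.

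Cores of that kind were looked up in RefSeq promoters of build GRCm38.p6, in the 250 bases before each annotated start. Of the 33 members, 31 matched a window, 18 of the glycolytic side and 13 other HIF targets (not Bnip3l or Ndrg1). ACGTG, on either strand (CACGT when read from the other one), stood in 12 of 18 windows of the other HIF targets (66.7%), against 11 of 26 windows of the glycolytic side (42.3%). The share was 16.6% among 32851 promoter windows of all genes and 17.8% among those of protein-coding genes. Median G+C content was 65.6% for the other HIF targets, 62.2% for the glycolytic side and 52.4% for all windows, so base composition differed along with the match. With GCGTG counted too, the shares were 77.8% for the other HIF targets, 73.1% for the glycolytic side and 38.6% for all windows. A gene can have several windows that overlap, CACGTG reads as a match on both strands, and a match is only a description of the letters. Stretches of 80 bases are printed for 4 HIF targets with low ratios in anti-PD-1 (below). Others are from 3 enzymes of lower glycolysis and the lactate exporter. Only windows with a match are shown. The stretches of Ankrd37, Hilpda, Ldha and Slc16a3 lie before an annotated transcript start but inside the span that the GENCODE annotation gives the gene. Capitals mark the match, and each runs 5′ to 3′ on the strand of its gene.
Ankrd37 (chr8:45999851-45999930, minus strand): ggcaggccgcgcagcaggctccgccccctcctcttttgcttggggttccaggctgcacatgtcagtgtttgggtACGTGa
Bnip3 (chr7:138909572-138909651, minus strand): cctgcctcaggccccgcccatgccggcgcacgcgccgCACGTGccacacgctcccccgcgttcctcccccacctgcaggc
Egln3 (chr12:54204045-54204124, minus strand): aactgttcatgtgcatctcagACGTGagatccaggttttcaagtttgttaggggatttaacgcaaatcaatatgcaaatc
Hilpda (chr6:29272545-29272624, plus strand): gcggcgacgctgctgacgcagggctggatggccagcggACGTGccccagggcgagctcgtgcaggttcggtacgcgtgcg
Pgk1 (chrX:106186931-106187010, plus strand): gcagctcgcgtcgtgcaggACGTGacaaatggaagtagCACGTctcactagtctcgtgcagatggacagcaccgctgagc
Pgam1 (chr19:41911719-41911798, plus strand): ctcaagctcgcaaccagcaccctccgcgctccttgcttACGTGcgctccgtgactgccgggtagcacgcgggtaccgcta
Ldha (chr7:46845724-46845803, plus strand): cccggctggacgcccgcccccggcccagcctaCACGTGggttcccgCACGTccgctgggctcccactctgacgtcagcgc
Slc16a3 (chr11:120948987-120949066, plus strand): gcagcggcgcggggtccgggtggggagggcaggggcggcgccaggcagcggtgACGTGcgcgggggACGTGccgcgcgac

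The anti-PD-1 library held 9423 cell barcodes with 115407230 unique molecular identifiers (UMIs, each an individual captured molecule), and the control library 8441 barcodes with 113268618 UMIs; 107 barcodes occurred in both. Cells were assigned to a class by the UMIs of marker genes and are called X-like. LLC-like cells numbered 5338 in anti-PD-1 and 3930 in control, with median depths of 13680 UMIs in anti-PD-1 and 16932 UMIs in control. Further classes that reached 50 cells in each library were macrophage-like (1207 cells in anti-PD-1 and 992 in control, and in that order for the rest), fibroblast-like (265 and 144), monocyte-like (269 and 223), neutrophil-like (107 and 155), NK cell-like (78 and 59) and T cell-like (57 and 127). Cells with no class, or with markers of several, were 21.2% of anti-PD-1 and 31.4% of control cells and were left out. Cells passing the monocyte and macrophage gates and no other were kept as macrophage-like. LLC markers outside LLC-like cells were taken as a measure of tumour RNA carried there, as free RNA or in doublets, which cannot be told apart. Relative to their summed level in LLC-like cells they reached 9.5% to 31.3% in the described classes of anti-PD-1 and 15.7% to 32.7% in those of control, highest in neutrophil-like cells of both. Cells with 3 LLC marker UMIs from 2 markers and 500 CPM passed the LLC gate and were left out of other classes. Shallow cells could thus keep a higher LLC share. Neutrophil-like cells had median depths of 826 UMIs in anti-PD-1 and 771 UMIs in control, and how far depth sets the order of classes was not tested. In LLC-like cells, macrophage markers stood at 1.68% of their macrophage-like level in anti-PD-1 and 3.30% in control, and globin transcripts at 56.3 UMIs per 1000000 in anti-PD-1 and 612 in control.

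LLC-like cells of anti-PD-1 had lower levels of nearly every member. Of 33 members, 30 had a log2 ratio of anti-PD-1 over control below 0, and the median was -0.47, against -0.01 over the 11919 genes with at least 100 UMIs in this class. Of those genes, 6103 were below 0. The 15 other HIF targets were all below 0 (median -0.51), as were 15 of 18 genes of the glycolytic side (median -0.43). More than 1.5-fold lower were 9 members, against a background of 8.96% of all measured genes; none was more than 1.5-fold higher, against 3.74%. The count of lower members was 14 with every cell weighted equally and 15 with cells thinned to 1 depth. Shares of all genes were not computed under such alternatives, here or below, except at 2-fold. Levels are given as UMIs of the gene per 1000000 UMIs of the class (CPM), intervals are 95% and cover counting error only, and every log2 ratio is anti-PD-1 over control.

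**Figure D1:**
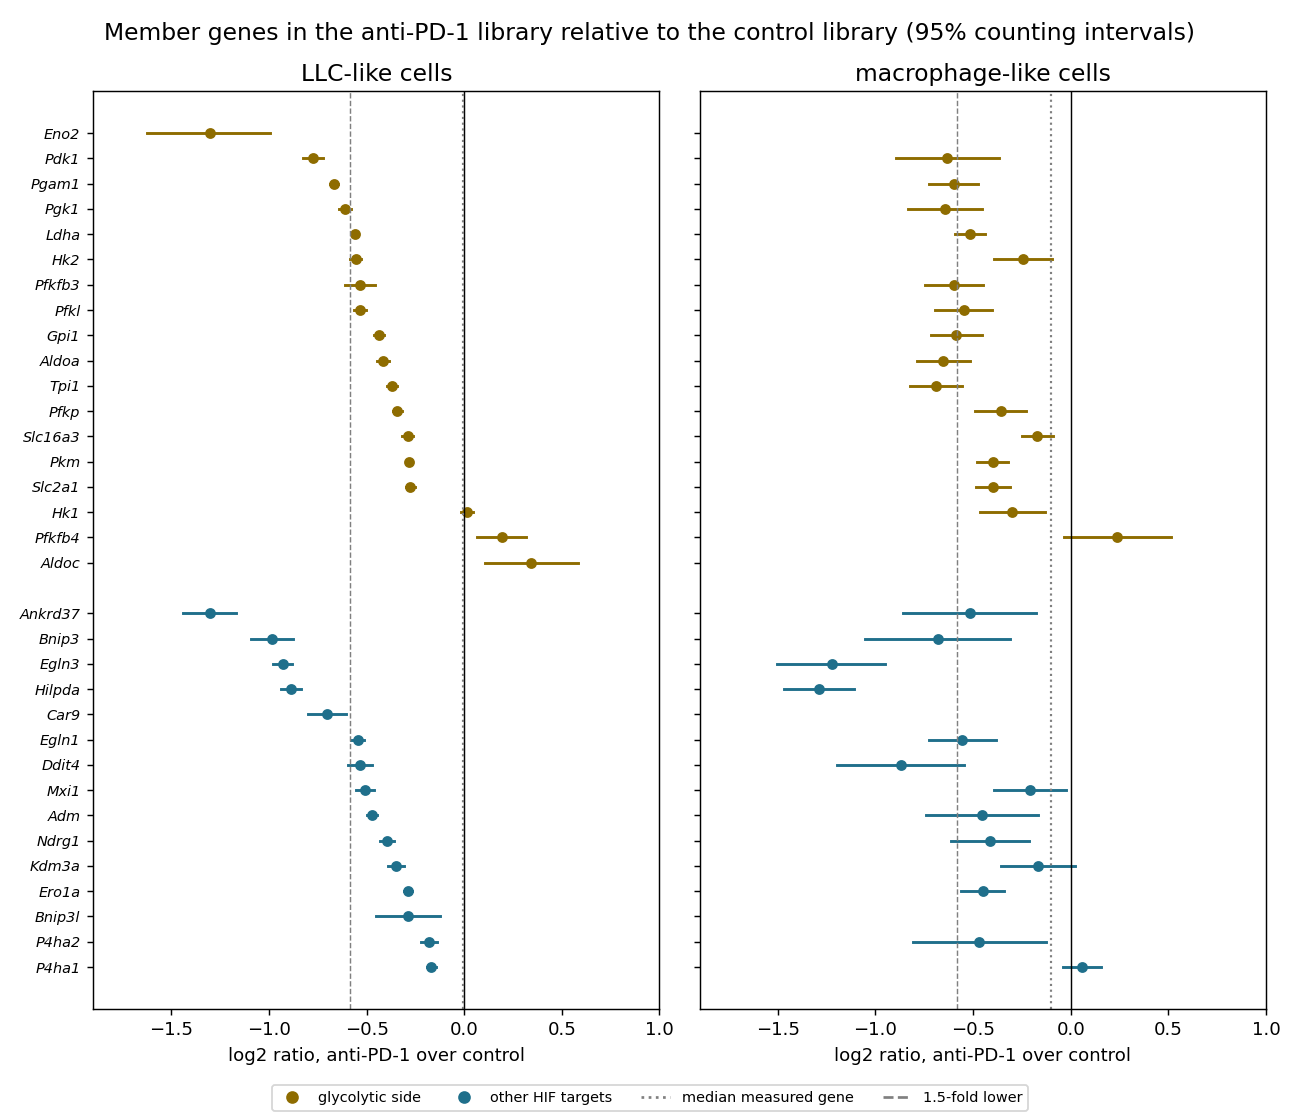
Log2 ratio of anti-PD-1 over control (horizontal axis) for each member (rows) in LLC-like cells (left) and macrophage-like cells (right); points are ratios, bars are 95% counting intervals, the dotted line is the median measured gene and the dashed line 1.5-fold lower. In LLC-like cells 30 of 33 points lie left of 0, with Hk1, Pfkfb4 and Aldoc right of it; in macrophage-like cells 27 of 29 lie left, and members with under 100 UMIs have no point.

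Transport genes lay close together. Slc2a1, the glucose transporter GLUT1, stood at 316 CPM in anti-PD-1 and 382 CPM in control, a log2 ratio of -0.28 (-0.30 to -0.25). Slc16a3, which exports lactate, stood at 201 CPM in anti-PD-1 and 245 CPM in control, a ratio of -0.29. Neither passed 1.5-fold.

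Enzymes of glycolysis differed in how far they stood apart. Ldha, which turns pyruvate into lactate and is the member with the most UMIs, had 1110 CPM in anti-PD-1 and 1632 CPM in control, a log2 ratio of -0.56 (-0.57 to -0.55). Pkm, pyruvate kinase, had 948 CPM in anti-PD-1 and 1155 CPM in control, a ratio of -0.28. Pgam1, phosphoglycerate mutase, had 296 CPM in anti-PD-1 and 470 CPM in control, and its ratio of -0.67 was past 1.5-fold. Pgk1, the kinase one step before it that makes ATP, was also past 1.5-fold at 132 CPM in anti-PD-1 and 202 CPM in control (-0.61). Eno2, an enolase best known from neurons, had the lowest ratio of the side, -1.30 (-1.62 to -0.99), on only 121 UMIs in anti-PD-1 and 290 UMIs in control. In the steps from glucose to triose phosphates, the ratios of Hk2, Gpi1, Pfkl, Pfkp, Aldoa and Tpi1 lay from -0.55 to -0.34, none past 1.5-fold. Hk1, the hexokinase that most tissues express at all times, differed least, with 178 CPM in anti-PD-1 and 176 CPM in control (0.01, -0.02 to 0.05). Aldoc, an aldolase best known from brain, was the highest at 0.34, at a level of 3.63 CPM in anti-PD-1 and 2.86 CPM in control.

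Kinases that regulate the pathway went both ways. Pdk1, which shuts off pyruvate dehydrogenase and so keeps pyruvate out of the mitochondria, had 53.5 CPM in anti-PD-1 and 91.4 CPM in control, a log2 ratio of -0.77 (-0.82 to -0.72). Pfkfb3, which makes the activator of phosphofructokinase, had 26.0 CPM in anti-PD-1 and 37.7 CPM in control (-0.53), and its relative Pfkfb4 had 12.2 CPM in anti-PD-1 and 10.7 CPM in control (0.19).

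Among the other HIF targets, 5 were past 1.5-fold. Ankrd37, an ankyrin-repeat protein induced by hypoxia, had 6.95 CPM in anti-PD-1 and 17.2 CPM in control, a ratio of -1.30 (-1.44 to -1.17). Bnip3, a receptor for the removal of mitochondria, had 11.6 CPM in anti-PD-1 and 23.0 CPM in control (-0.98), while its relative Bnip3l was at -0.29. Egln3, a HIF prolyl hydroxylase, had 58.2 CPM in anti-PD-1 and 111 CPM in control (-0.93), and Egln1, the main hydroxylase that marks HIF, was at -0.55. Hilpda, which restrains lipid breakdown and so lets lipid droplets build up, had 48.8 CPM in anti-PD-1 and 90.3 CPM in control (-0.89). Car9, the carbonic anhydrase used as a tissue marker of hypoxia, had 15.0 CPM in anti-PD-1 and 24.5 CPM in control (-0.70). The 5 past 1.5-fold were Ankrd37, Bnip3, Egln3, Hilpda and Car9.

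Genes of the secretory path were nearer to control. P4ha1 and P4ha2, the collagen prolyl hydroxylases, were at -0.17 and -0.18, and Ero1a, an oxidase of protein folding, at -0.29. P4ha1 had 291 CPM in anti-PD-1 and 327 CPM in control, and Ero1a 314 CPM in anti-PD-1 and 383 CPM in control. Adm, the vessel-relaxing peptide adrenomedullin, had 201 CPM in anti-PD-1 and 279 CPM in control (-0.47). The remaining targets, Ndrg1, Ddit4 (an inhibitor of mTORC1), Mxi1 (an antagonist of MYC) and Kdm3a (a histone demethylase), lay from -0.54 to -0.35. The difference between the median of the glycolytic side and that of the other HIF targets was small beside the range within each, which was -1.30 to 0.34 and -1.30 to -0.17.

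Of the HIF subunits, Hif1a and Arnt were near control. Hif1a stood at 59.6 CPM in anti-PD-1 and 56.2 CPM in control (0.08, 0.03 to 0.14). Arnt, its partner, stood at 110 CPM in anti-PD-1 and 98.7 CPM in control (0.16). Vhl was at -0.44. HIF-alpha is controlled mainly as protein, which was not measured. Of 26 further pathway genes that are not members, 20 had enough UMIs in LLC-like cells, and their median ratio was 0.04. Over 1.5-fold lower were Vegfa, Hk3 and Epas1, and over 1.5-fold higher was Ldhb, at under 1 CPM in both. Vegfa, the vessel growth factor and a HIF target, had 44.6 CPM in anti-PD-1 and 84.8 CPM in control (-0.93). Hk3 is a hexokinase of myeloid cells, at 6.28 CPM in anti-PD-1 and 17.6 CPM in control in LLC-like cells, against 248 CPM in anti-PD-1 and 415 CPM in control in macrophage-like cells, and the macrophage markers carried in LLC-like cells were lower in anti-PD-1 too (given above); their part in the Hk3 value was not tested. Epas1, the HIF alpha subunit best known from vessels, had 0.93 CPM in anti-PD-1 and 3.45 CPM in control. Slc16a1, a lactate and pyruvate carrier, was higher, at 763 CPM in anti-PD-1 and 603 CPM in control (0.34). Over all cells together, 10 members were more than 1.5-fold lower (background 10.1%) and none higher (background 2.91%).

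**Figure D2:**
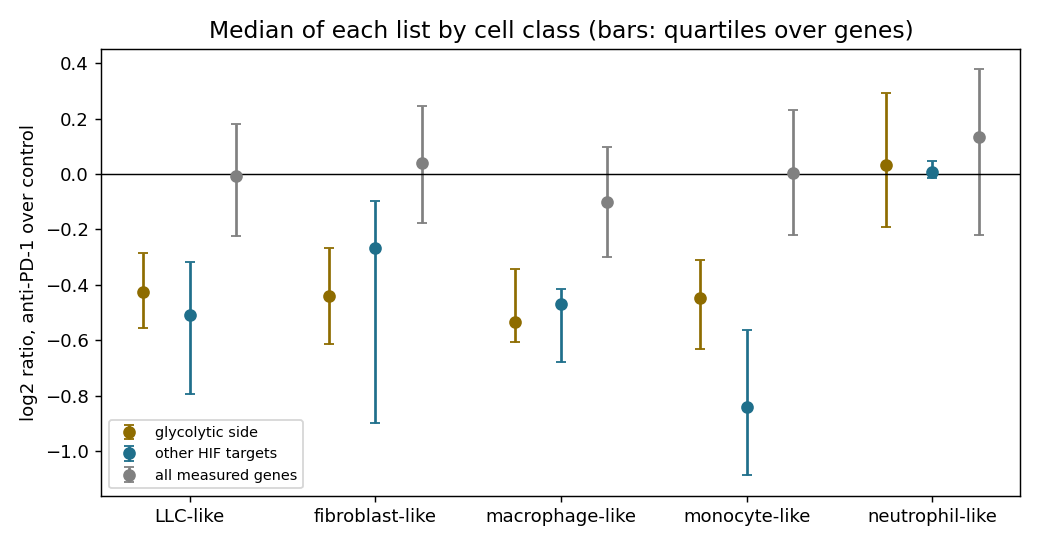
Median log2 ratio of anti-PD-1 over control (vertical axis) of the glycolytic side, the other HIF targets and all measured genes in 5 cell classes; bars span the quartiles over genes. The members' medians lie below that of all genes in each of the 5 classes. They run from -0.84 to -0.27 in LLC-like, fibroblast-like, macrophage-like and monocyte-like cells. In neutrophil-like cells they are 0.01 and 0.03, against 0.13 for all genes.

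Macrophage-like cells also had lower levels of most members. Their median over 29 measured members was -0.52, against -0.10 over 9155 genes, and 27 members were below 0. Of the 9155 genes, 5855 were below 0. More than 1.5-fold lower were 11 members, against 7.33% of all measured genes, and none was higher, against 2.65%. Relative to the median gene, 4 members were past the same fold on the lower side. Hilpda had 75.6 CPM in anti-PD-1 and 185 CPM in control, a log2 ratio of -1.29 (-1.47 to -1.11). Egln3 had 33.1 CPM in anti-PD-1 and 77.2 CPM in control (-1.22), Ddit4 26.8 CPM in anti-PD-1 and 49.0 CPM in control (-0.87), and Tpi1, triose phosphate isomerase, 160 CPM in anti-PD-1 and 259 CPM in control (-0.69). At the other end stood Pfkfb4 (55.7 CPM in anti-PD-1 and 47.2 CPM in control, 0.24), P4ha1 (390 CPM in anti-PD-1 and 374 CPM in control, 0.06), Kdm3a (-0.17) and Slc16a3 (516 CPM in anti-PD-1 and 581 CPM in control, -0.17). The intervals of Pfkfb4, P4ha1 and Kdm3a included 0. Tumour RNA was carried at a lower share in these cells in anti-PD-1, 14.8%, against 21.9% in control. After the LLC-like level times that share was subtracted, an alternative chosen after seeing the data, the median was -0.34 and 4 members were more than 1.5-fold lower: Hilpda (-1.27), Egln3 (-1.12), Ddit4 (-0.80) and Tpi1 (-0.61). The same subtraction brought Ldha to -0.12 and Pkm to -0.19, against -0.52 and -0.40 as measured.

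Monocyte-like cells held the lowest ratios among the measured members of the described classes. All 23 measured members were below 0, with a median of -0.57 against 0.00 over 3056 genes, and 11 were more than 1.5-fold lower, against a background of 5.3%. Of the 3056 genes, 1514 were below 0. Egln3 had 38.7 CPM in anti-PD-1 (25.7 to 55.9) and 297 CPM in control (254 to 344), a log2 ratio of -2.94 (-3.57 to -2.36) on 28 UMIs in anti-PD-1 and 171 UMIs in control. Hilpda had 60.8 CPM in anti-PD-1 and 383 CPM in control, a ratio of -2.66 on 44 UMIs in anti-PD-1 and 221 UMIs in control. Ndrg1 had 99.5 CPM in anti-PD-1 and 212 CPM in control (-1.09) and Ddit4 59.4 CPM in anti-PD-1 and 125 CPM in control (-1.07). The glycolytic side had a median of -0.45, against -0.84 for the other HIF targets; that difference of 0.39 was 0.06 with every cell weighted equally and ranged up to 0.53 under the alternatives. P4ha1, Slc16a3, Pfkfb3 and Hk1 were nearest, from -0.12 to -0.25. Vegfa had 158 CPM in anti-PD-1 and 531 CPM in control (-1.75) in these cells. Tumour RNA was carried at 13.2% in anti-PD-1 and 15.7% in control; with it subtracted the median was -0.55 and 11 members were more than 1.5-fold lower.

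Fibroblast-like cells had lower levels of most members as well. Of 26 measured members 23 were below 0, with a median of -0.39 against 0.04 over 7238 genes. Of those genes, 3239 were below 0. More than 1.5-fold lower were 8 members (background 6.29%), and 1 was more than 1.5-fold higher (background 4.71%). Hilpda had 23.7 CPM in anti-PD-1 and 70.0 CPM in control (-1.56), Slc16a3 82.2 CPM in anti-PD-1 and 202 CPM in control (-1.30), Ddit4 57.6 CPM in anti-PD-1 and 122 CPM in control (-1.08), and P4ha2 103 CPM in anti-PD-1 and 207 CPM in control (-1.01). Adm was the member that was higher, at 353 CPM in anti-PD-1 (329 to 379) and 189 CPM in control (168 to 213), a log2 ratio of 0.90 (0.70 to 1.10). Kdm3a, Ndrg1 and Hk1 lay near 0, at 0.12, 0.05 and -0.05, with intervals that included it. The gate lay close to many of these cells: 27.9% of them in anti-PD-1 and 27.1% in control had marker levels less than 1.5-fold above the limit, the highest shares of the described classes. Tumour RNA was carried at 20.5% in anti-PD-1 and 22.7% in control; with it subtracted the median was -0.26 and 6 members were more than 1.5-fold lower.

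Neutrophil-like cells showed no common direction. Of 15 measured members 6 were below 0, the median was 0.01 against 0.13 over 508 genes, and none was more than 1.5-fold lower (background 11.0%) or higher (background 10.0%). Of the 508 genes, 203 were below 0. Hilpda had 931 CPM in anti-PD-1 (769 to 1116) and 1002 CPM in control (869 to 1149), and Egln3 530 CPM in anti-PD-1 and 513 CPM in control. Slc16a3 had 2142 CPM in anti-PD-1 and 1717 CPM in control (0.32, 0.08 to 0.55). At 116 UMIs in anti-PD-1 and 203 UMIs in control for Hilpda, the interval of its ratio ran from -0.45 to 0.23, so it excludes the ratios of Hilpda in the LLC-like, macrophage-like and monocyte-like cells. Whether the classes differ beyond counting error was not tested, since each has 1 library per group. With tumour RNA subtracted, carried at 31.3% in anti-PD-1 and 32.7% in control, the median was 0.10. As measured, Gpi1 was the lowest, at -0.58 (-1.15 to -0.03). Also lower were Pfkl, at 281 CPM in anti-PD-1 and 385 CPM in control, and Pfkp, at 554 CPM in anti-PD-1 and 651 CPM in control. Higher were Pgam1, at 497 CPM in anti-PD-1 and 400 CPM in control, and Pfkfb3, at 481 CPM in anti-PD-1 and 390 CPM in control. In T cell-like cells 3 members had enough UMIs (Pfkp -0.59, Ldha -0.29, Pkm -0.23), all with intervals that included 0; Pfkp alone was past 1.5-fold (background 17.9%). In NK cell-like cells Ldha was at -0.19 and Pkm at -0.11.

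Of 29 members measured in at least 2 classes, 15 were lower in anti-PD-1 in each class where they were measured, against a background of 25.6% of all such genes. Levels by class were led by neutrophil-like cells, which held the highest CPM for 21 of 33 members in anti-PD-1 (background 12.8% of all genes with 100 UMIs over all cells) and 13 in control (background 12.6%), and for 11 in both (background 5.56%). These counts also take in levels that rest on few UMIs, since 15 of the 33 members reached 100 UMIs in neutrophil-like cells. Monocyte-like cells led for 3 members in anti-PD-1 (background 7.87%) and 9 in control (background 7.91%), and LLC-like cells for 2 in anti-PD-1 (background 22.8%) and 6 in control (background 23.2%). Only within a gene can these levels be compared, since probes differ in how well they bind. Slc16a3 ran from 2142 CPM in neutrophil-like cells of anti-PD-1 through 1331 CPM in monocyte-like and 516 CPM in macrophage-like cells to 201 CPM in LLC-like cells. Control gave the same order at 1717, 1477, 581 and 245 CPM. The intervals of these classes did not overlap in anti-PD-1, and in control only those of neutrophil-like (1541 to 1907) and monocyte-like cells (1380 to 1580) did. T cell-like cells, at 245 CPM in anti-PD-1 and 277 CPM in control, lay between macrophage-like and LLC-like cells. Their interval held the LLC-like level in both libraries (213 to 353 in control). For Ldha the neutrophil-like level of anti-PD-1 (1396 CPM, 1196 to 1620) was above its LLC-like level, and in control the LLC-like level of 1632 CPM was above the neutrophil-like one of 1347 CPM (1192 to 1516). Car9 was highest in LLC-like cells in both libraries, at 15.0 CPM in anti-PD-1 and 24.5 CPM in control. Fibroblast-like cells came next, at 8.35 CPM in anti-PD-1 and 16.5 CPM in control, on under 100 UMIs over both. Macrophage-like cells held 36 Car9 UMIs of 5264742 in anti-PD-1 and 33 of 3858506 in control. At most 3 Car9 UMIs were found in monocyte-like, neutrophil-like, T cell-like or NK cell-like cells of either library, classes with few UMIs in all.

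**Figure D3:**
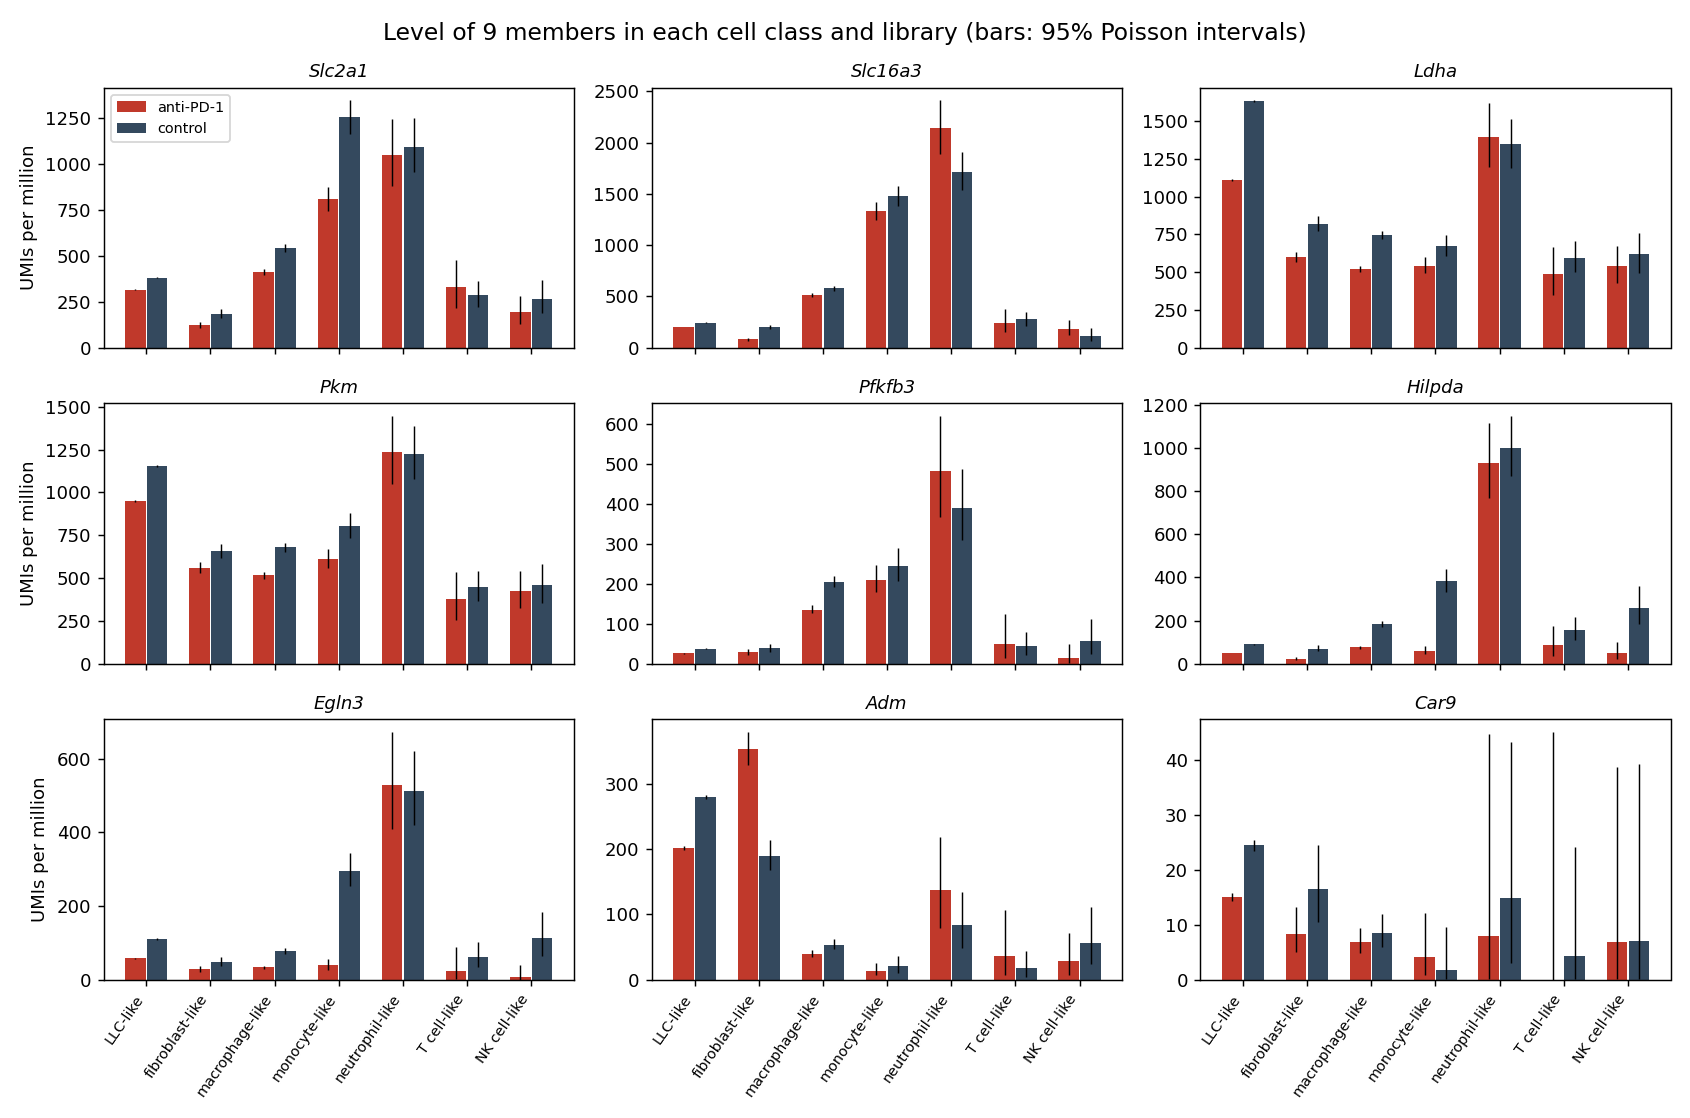
Level of 9 members in CPM (vertical axes, each from 0) in 7 cell classes, anti-PD-1 left of control in each pair; bars on the columns are 95% Poisson intervals. Hilpda, Egln3, Slc16a3 and Pfkfb3 stand highest in neutrophil-like cells in both libraries, while the monocyte-like columns of Hilpda and Egln3 are 60.8 and 38.7 CPM in anti-PD-1 and 383 and 297 CPM in control.

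Within LLC-like cells the members were not spread evenly. Each cell was thinned to 5000 UMIs, which kept 5002 cells of anti-PD-1 and 3729 of control and left out 336 shallower ones of anti-PD-1 and 201 of control. The 15 other HIF targets then summed to a median of 6 UMIs per cell in anti-PD-1 and 7 in control, with 90th percentiles of 12 UMIs in anti-PD-1 and 20 in control and 99th percentiles of 65 UMIs in anti-PD-1 and 70.7 in control. The variance over cells was 17.5 times the mean in anti-PD-1 and 15.0 times in control. Cells with 30 or more such UMIs were 3.18% of anti-PD-1 and 5.79% of control cells. The glycolytic side summed to a median of 19 UMIs in anti-PD-1 and 27 in control, with 99th percentiles of 68 in anti-PD-1 and 79 in control. Past 80 UMIs the HIF order of the libraries changed: 0.26% of anti-PD-1 cells (13) and 0.107% of control cells (4) had 120 or more. The glycolytic sum was lower in anti-PD-1 at each percentile computed, with 5th percentiles of 9 UMIs in anti-PD-1 and 13 in control.

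**Figure D4:**
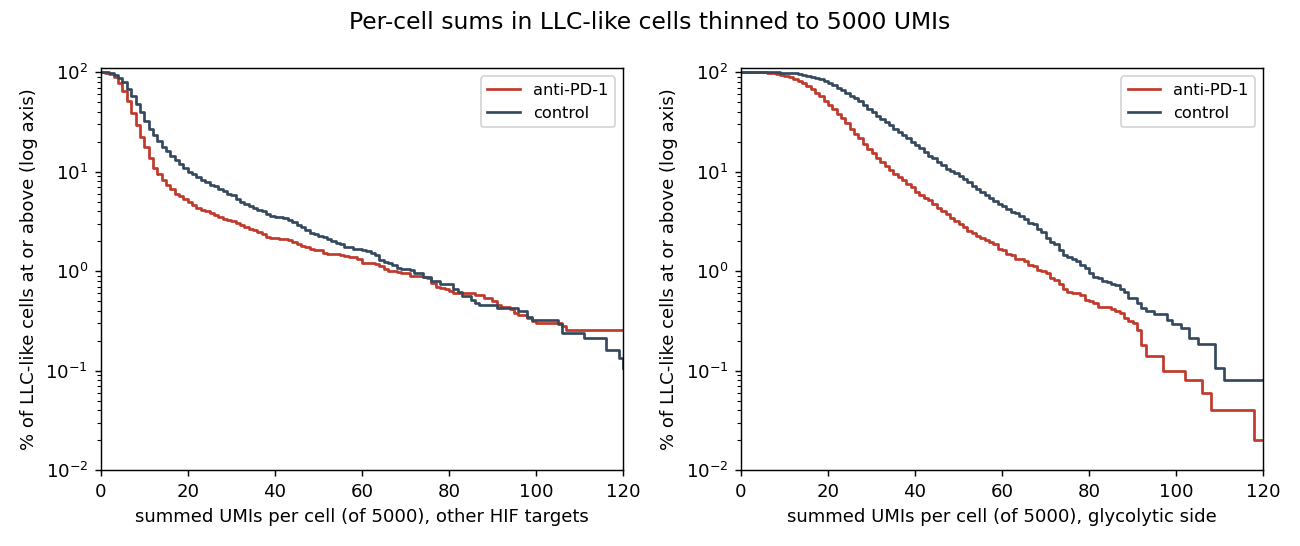
Percent of LLC-like cells (vertical log axis) with at least the summed UMIs on the horizontal axis, for the other HIF targets (left) and the glycolytic side (right), each cell thinned to 5000 UMIs. The HIF curves separate between about 5 and 60 UMIs and cross more than once past 80 UMIs, where few cells are left (13 of anti-PD-1 and 4 of control at 120 UMIs); the glycolytic curves do not cross.

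Cells rich in HIF targets were also rich in glycolytic RNA. Across cells, the sums had a Pearson correlation of 0.64 in anti-PD-1 (5002 cells) and 0.67 in control (3729 cells), and a Spearman correlation of 0.30 in anti-PD-1 and 0.50 in control; cells share their library, and these are descriptions only. Cells were then set side by side at the same HIF sum. That sum is a small count in a thinned cell, so cells of the same bin can differ in their HIF level. How much this adds to the differences within bins was not tested. At 0 to 4 HIF UMIs the mean glycolytic sum was 18.1 ± 7.15 UMIs in anti-PD-1 and 23.3 ± 7.66 in control (SD over 1739 and 779 cells). At 10 to 14 it was 23.6 in anti-PD-1 and 31.7 in control, and at 30 or more 57.8 ± 20.5 in anti-PD-1 and 61.6 ± 19.4 in control (SD over 159 and 216 cells). Anti-PD-1 was lower in each of the 7 bins, by less than 1 SD over cells. Reweighted to the control's mix of bins, the anti-PD-1 cells had a glycolytic log2 ratio of -0.33, against -0.48 as measured. Macrophage-like cells, thinned to 1000 UMIs, gave -0.27 against -0.43, with 1 bin in the other direction: at 6 or more HIF UMIs the mean was 12.0 over 28 cells of anti-PD-1 and 9.12 over 57 cells of control.

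**Figure D5:**
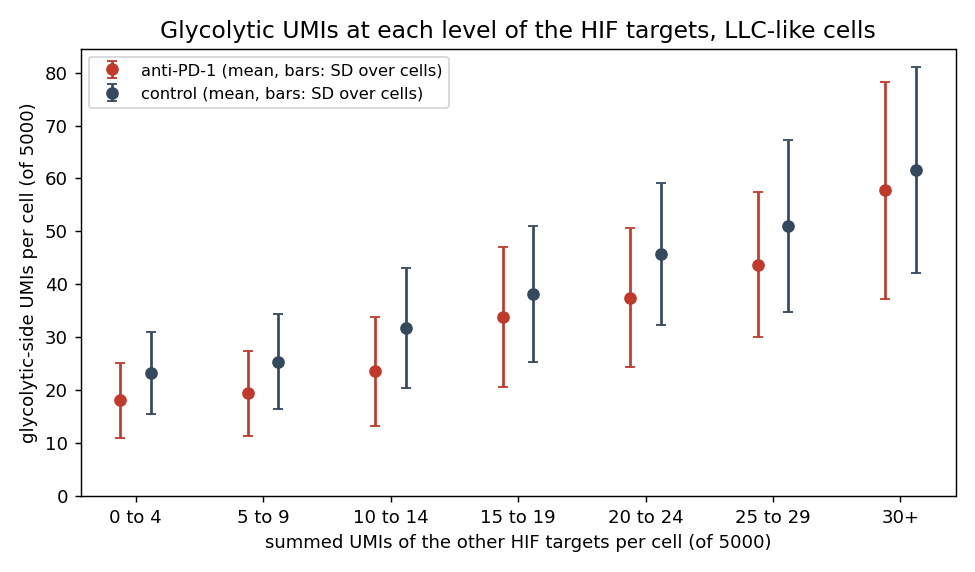
Mean glycolytic UMIs per LLC-like cell (vertical axis, of 5000 UMIs, bars are SD over cells) in bins of summed UMIs of the other HIF targets (horizontal axis), anti-PD-1 left of control. Both are higher in higher bins, and anti-PD-1 lies below control in each, by 5.18 UMIs in the first bin and 3.83 in the last.

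Genes differed in how closely they followed the HIF sum. LLC-like cells with 20 or more HIF UMIs were set against those with fewer than 5, leaving the gene in question out of the sum. Adm was 55.3-fold higher in the high cells of anti-PD-1 and 41.1-fold in those of control, Car9 39.6-fold in anti-PD-1 and 22.7-fold in control, and Ndrg1, a stress and differentiation gene, 23.2-fold in anti-PD-1 and 11.2-fold in control. Slc2a1 was the glycolytic member with the largest such fold among those with over 1000 UMIs in LLC-like cells, 7.12-fold in anti-PD-1 and 9.68-fold in control. The abundant enzymes had smaller folds, with Ldha at 2.30-fold in anti-PD-1 and 1.75-fold in control and Pkm at 1.96-fold in anti-PD-1 and 1.76-fold in control. Lower values were found for Hk1 (1.09-fold in anti-PD-1 and 1.39-fold in control) and Pfkfb4 (0.92-fold in anti-PD-1 and 0.93-fold in control). The fold between high and low cells was 3.13-fold in anti-PD-1 and 1.18-fold in control for Pfkfb3, and for Aldoc, on few UMIs, 1.13-fold in anti-PD-1 and 0.78-fold in control.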

How the data were processed

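Counts of UMIs per gene and cell were deposited by the authors as raw, unnormalized matrices, per the file headers. Per the labels, libraries were made with a Flex kit, in which probes for each gene are counted in place of the RNA itself; a 3' protocol is cited as well. The submitters' processing notes give mm10 and Cell Ranger 7.0.1, whereas the matrix headers give Cell Ranger 9.0.1. Barcodes below 494 UMIs in anti-PD-1 and 493 in control were not analysed here. Probe sequences were not used, so signal shared with near-identical pseudogene copies of glycolytic genes cannot be told apart.

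Cells needed 300 genes or more and no more than 20% of UMIs from mitochondrial genes, which 9422 anti-PD-1 and 8395 control cells met. A class needed 3 marker UMIs from 2 markers and a minimum marker CPM, and cells passing several gates were left out in place of a doublet caller. The exception was cells passing the monocyte and macrophage gates and no other, which were kept as macrophage-like. Monocyte-like cells are therefore those that passed the monocyte gate and not the macrophage gate. The gate limits were set after seeing the marker levels; Col3a1 was left out of the fibroblast markers because LLC-like cells express it, and Ly6c2 had no row. UMIs were summed per class and library, scaled to CPM, with exact Poisson intervals and exact binomial (Clopper-Pearson) intervals for ratios at 95%, which cover counting error only. A gene counted as measured had 100 UMIs over both libraries in the class, and the fold threshold was 1.5. The 2 rows of Aldoa were summed. The ratio and its interval were checked on counts simulated from the LLC-like sums with known folds. That simulation held counting error only, so it cannot speak to differences between animals or libraries. Thinning used a fixed seed in numpy 2.4.6, with scipy 1.17.1, pandas 2.3.3 and Python 3.11.15.

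The members and lists were chosen with earlier results of these data known. Values or ranges were given for the 4 lowest and 4 highest measured members of each class and the 6 most abundant in LLC-like cells. In neutrophil-like cells not all of the highest were named, and Egln3 was named outside this rule. Further members (such as Car9, Pdk1 and Pgk1) were named after their values were seen. Alternatives changed the cell filter, gate, weighting, depth, scaling, UMI minimum and threshold.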

Additional observations from a re-analysis of the deposited data

Results flagged for a closer look

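For Adm the classes went opposite ways, with intervals on opposite sides of 0: the log2 ratio of anti-PD-1 over control was 0.90 in fibroblast-like cells and -0.47 in LLC-like cells. Slc16a3 did the same, with 0.32 in neutrophil-like cells and -0.29 in LLC-like cells. Both rest on 1 library per group, and the difference between the classes was not tested.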

How the results depend on the processing

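Of the medians and counts recomputed under the alternatives, 297 stayed within a tolerance of their main value and 34 moved. For medians and their differences the tolerance came from 95% intervals of the medians over the genes of each list. For counts it was 1.5-fold. With lists this short the tolerance is wide, so a value can shift clearly and still count as within it. No median changed sign in LLC-like, macrophage-like, monocyte-like or fibroblast-like cells; in neutrophil-like cells, whose medians are near 0, 13 of 26 did. The difference between the medians of the glycolytic side and the other HIF targets was 0.01 in macrophage-like cells with tumour RNA subtracted, against -0.06, and 0.13 in fibroblast-like cells with 5 genes moved to the HIF targets, against -0.17; in neutrophil-like cells it changed sign in 3 of 7 alternatives. The LLC-like median over all members stayed between -0.52 and -0.45, and 327 of 329 single-gene values in LLC-like cells and 302 of 306 in macrophage-like cells kept their sign. Counts past the fold moved more. They have no background here except at 2-fold. At 2-fold, 500 of 11919 measured genes were lower in LLC-like cells and 125 of 9155 in macrophage-like cells. In monocyte-like cells 38 of 3056 genes were lower at 2-fold, and in fibroblast-like cells 193 of 7238 were lower and 44 higher. In LLC-like cells 14 members were lower and 1 higher with every cell weighted equally, 15 and 1 with cells thinned to 1 depth, and 2 were lower at 2-fold. In macrophage-like cells 4 were lower relative to the median gene, 7 with at least 500 UMIs and 2 at 2-fold, and 1 was higher after thinning; with tumour RNA subtracted, 4 were lower, 1 higher (Adm, whose control level was below the amount subtracted and was set to 3 UMIs) and the median -0.34. Monocyte-like cells had 4 lower after thinning, 2 with at least 500 UMIs (6 members measured, median -0.35) and 5 at 2-fold, and 1 higher with no UMI minimum. Fibroblast-like cells had 3 lower after thinning, 2 with at least 500 UMIs, and 4 lower and 0 higher at 2-fold. In neutrophil-like cells 1 was lower with at least 1000 genes per cell and under a stricter gate; 1 was lower under a gate on marker shares (median -0.17); 2 were lower with cells weighted equally and after thinning; relative to the median gene 2 were lower (median -0.12, and -0.13 for the HIF targets); with no UMI minimum 8 were lower and 5 higher; with tumour RNA subtracted 1 was lower and 1 higher. Tumour RNA subtraction was added after seeing the data. The cause of each move was not tested. No paired analysis was possible because each group has 1 library. Depth limits the smaller classes most: 3 members were measured in T cell-like and 2 in NK cell-like cells.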
